A study of Mus musculus with 6 samples.

Results

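The proximal part of mouse chromosome 16 held 233 genes whose transcripts were, for most of them, somewhat less abundant in 4T1 cells kept at 100 nM PFOS than in cells kept at 0 nM. The genes were taken by position and level. They are the genes of chromosome 16 that start at or before 50 Mb and have a mean of at least 1 FPKM over all 6 libraries, where FPKM counts sequenced fragments relative to the length of the transcript and to all mapped fragments. They make up 233 of the 11741 genes at that level and of the 28418 genes listed. The region holds 590 listed genes, of which 348 lay under the level and 9 others (Cdc45, Mcm4, Rfc4, Abcc1, Tfrc, Hes1, Pdia5, Parp14 and Sdf2l1) were left out by name. The stretch was picked because its transcripts were lower at 100 nM in these same libraries. The differences between 100 nM and 0 nM PFOS below are therefore a description of the stretch, with no test, and they support nothing by themselves.

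4T1 is a mouse mammary carcinoma line, described by the submitters as triple negative, and PFOS (perfluorooctane sulfonate) is a persistent fluorinated surfactant. The cells were kept for 35 passages at 0 nM or at 100 nM PFOS, and poly(A) RNA of 3 libraries at each dose was sequenced in pairs with strand marking. Both groups are the same line, labelled as epithelial cells, and the dose is the labelled difference between them. The labels do not tell whether the 3 libraries of a dose stem from different cultures, so the spread between them may be technical.

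Proximal mouse chromosome 16 is gene rich and corresponds, in blocks of kept gene order, to parts of several human chromosomes. One block is that deleted in DiGeorge syndrome in humans and holds Hira, Ranbp1, Dgcr8 and Slc25a1, while the distal end of the mouse chromosome holds counterparts of many genes triplicated in Down syndrome. The genes share a position rather than a pathway: they encode translation factors, ubiquitin enzymes, kinases, adhesion receptors, lipid enzymes and mitochondrial proteins.

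Promoter sequences are shown because the members lie side by side and were lower together. Of the 233 members, 177 have an entry in a RefSeq promoter table (build GRCm38.p6); Pla1a, the member with the lowest ratio, is not among them. The 4 windows printed here were chosen after the values were seen. They lie before 2 genes with clearly lower values, Pcyt1a and Itgb5, before Psmd2, which was slightly lower, and before Slc25a1, which stood at nearly the same level in both groups although most genes of its part of the stretch were lower. Each is the 250 bases before the gene's start, 5′ to 3′ along the gene's strand, and holds no annotated exon. Capitals mark matches, on either strand, to 6 motifs: the TATA box TATAAA, the CCAAT box CCAAT, the GC box GGGCGG, the E-box CACGTG, the ETS-type motif CCGGAAG and the AP-1 motif TGACTCA. Overlapping matches were all counted, so the run of capitals before Pcyt1a holds 2 overlapping GC boxes.
Pcyt1a, chr16:32430671-32430920, plus strand: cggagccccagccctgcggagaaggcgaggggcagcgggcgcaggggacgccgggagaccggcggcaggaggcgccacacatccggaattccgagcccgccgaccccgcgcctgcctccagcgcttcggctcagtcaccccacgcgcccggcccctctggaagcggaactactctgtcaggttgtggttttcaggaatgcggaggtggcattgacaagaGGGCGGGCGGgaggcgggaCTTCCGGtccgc
Itgb5, chr16:33829415-33829664, plus strand: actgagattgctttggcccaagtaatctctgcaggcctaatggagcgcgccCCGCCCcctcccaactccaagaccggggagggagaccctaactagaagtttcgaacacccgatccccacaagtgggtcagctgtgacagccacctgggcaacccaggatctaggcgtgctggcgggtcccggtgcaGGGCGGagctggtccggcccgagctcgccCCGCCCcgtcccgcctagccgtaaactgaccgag
Psmd2, chr16:20651402-20651651, plus strand: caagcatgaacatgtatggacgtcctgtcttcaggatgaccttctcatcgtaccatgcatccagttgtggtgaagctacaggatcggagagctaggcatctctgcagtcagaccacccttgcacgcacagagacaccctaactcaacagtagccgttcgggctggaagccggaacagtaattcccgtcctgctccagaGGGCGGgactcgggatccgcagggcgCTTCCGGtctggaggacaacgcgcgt
Slc25a1, chr16:17928220-17928469, minus strand: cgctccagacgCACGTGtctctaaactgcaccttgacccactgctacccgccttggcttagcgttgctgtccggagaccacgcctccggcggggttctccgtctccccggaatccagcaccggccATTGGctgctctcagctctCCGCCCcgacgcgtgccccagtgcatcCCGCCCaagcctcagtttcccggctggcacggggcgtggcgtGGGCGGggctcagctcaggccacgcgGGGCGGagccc

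The window before Slc25a1 held 4 GC boxes, 1 E-box and 1 CCAAT box, and that before Itgb5 held 3 GC boxes. The windows before Pcyt1a and Psmd2 each held 1 ETS-type motif, with 2 GC boxes and 1 GC box respectively. GC boxes thus stood before genes with lower values and before the gene that hardly differed. Over the same 250 bases, 61.6% of the 177 members held a GC box, against 32.7% of all 32851 promoters listed, and 15.8% against 6.91% held the ETS-type motif. The E-box was found in 12.4% against 6.02% and the CCAAT box in 39.0% against 33.8%. The TATA box was found in 6.78% against 12.4% and the AP-1 motif in 1.13% against 4.46%. Of the 85 promoters of expressed genes on distal chromosome 16, 63.5% held a GC box, 18.8% the ETS-type motif and 7.06% the E-box. In the same 85, the CCAAT box was found in 31.8%, the TATA box in 4.71% and the AP-1 motif in 0%. The table includes promoters of genes that these cells do not express, so the shares are a description only.

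The 6 libraries were alike in total, at 306716 to 309381 FPKM, with 21042 to 21591 genes above 0. The files hold no read counts, so the depth behind a value is unknown. The mammary epithelial markers Epcam, Cdh1, Krt7, Krt8, Krt18 and Krt19 were present in every library, with summed levels of 714 to 715 FPKM at 0 nM and 751 to 802 FPKM at 100 nM. Replicate 3 at 100 nM stood apart in its T and NK cell markers: all 6 (Cd3e, Cd3g, Cd8a, Gzmb, Nkg7 and Ptprc) were highest there and summed to 21.25 FPKM, against 0.06 to 0.23 FPKM in the other 5 libraries, where Cd3e, Cd3g and Nkg7 were listed at 0. Markers of myeloid cells summed to 130 to 168 FPKM at 0 nM and to 130 to 264 FPKM at 100 nM, with overlap between the doses. Most of these sums was Lyz2, which was highest in replicate 2 at 100 nM, at 240.43 FPKM. The other myeloid markers, Adgre1, Cd14, Csf1r and Itgam, were all highest in replicate 3 at 100 nM. Cd14 was at 65.16 FPKM there and at 8.41 to 24.14 FPKM elsewhere, and Csf1r at 7.57 FPKM against 3.30 to 6.20 FPKM. Markers of fibroblasts and endothelium (5 genes) summed to 1.32 to 1.47 FPKM at 0 nM and to 1.97 to 2.64 FPKM at 100 nM. The sums of this list and of the epithelial list were thus higher at 100 nM without overlap, and their part in the results below was not tested. In bulk RNA, fewer cells that express a gene and less RNA per cell cannot be told apart.

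Across the 233 members, 191 had a lower mean FPKM at 100 nM, against 47.2% of all genes tested. The median ratio of mean FPKM, 100 nM over 0 nM, was 0.896, with the middle 50% of members between 0.826 and 0.966, while the median over all 11741 genes was 1.004. On the log2(FPKM + 1) scale used for the fit, which understates the difference of genes at low levels, the median difference was -0.14. In 131 members every value at 100 nM lay below every value at 0 nM, against 13.3% of all genes tested, and in 6 every value lay above, against 13.7%. A limma fit over all tested genes with Benjamini-Hochberg adjustment called 66 members lower and 1 higher at an adjusted p under 0.05, against 2.46% and 1.69% of all tested genes. The called members are 28.3% of the stretch, and they are 22.8% of the 289 genes called lower anywhere, although members are 1.98% of the tested genes. Because the stretch was picked from this contrast, these shares describe it and are no evidence for it.

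The count of calls fell whichever library was left out, and fewer samples enter there by construction. It was 30, 25 and 25 without replicate 1, 2 or 3 at 0 nM. Without replicate 1, 2 or 3 at 100 nM it was 32, 28 and 38, the last being the library with T and NK cell transcripts. Calls over all tested genes fell too, from 487 to 139, 122, 143, 182, 143 and 289 in the same order. Without replicate 3 at 100 nM, 195 members had a lower mean on the log2 scale, where 192 did with it, and the median difference was again -0.14.

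Values along the chromosome can be described in steps. The ratios of protein-coding genes, in order of their starts and without the 9 left out by name, were divided into 5 runs that leave the smallest absolute deviation from the run medians. This division was chosen after the values were seen, and it left 65.7% of the absolute deviation around a single median, against 67.6% with 4 runs and 65.1% with 6. The first 4 runs are called step 1 to step 4 here, and the fifth covers the rest of the chromosome. With 4 to 8 runs the ends of step 1 and step 2 fell between the same genes. With 4 runs, step 3 and most of step 4 were joined.

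**Figure D1:**
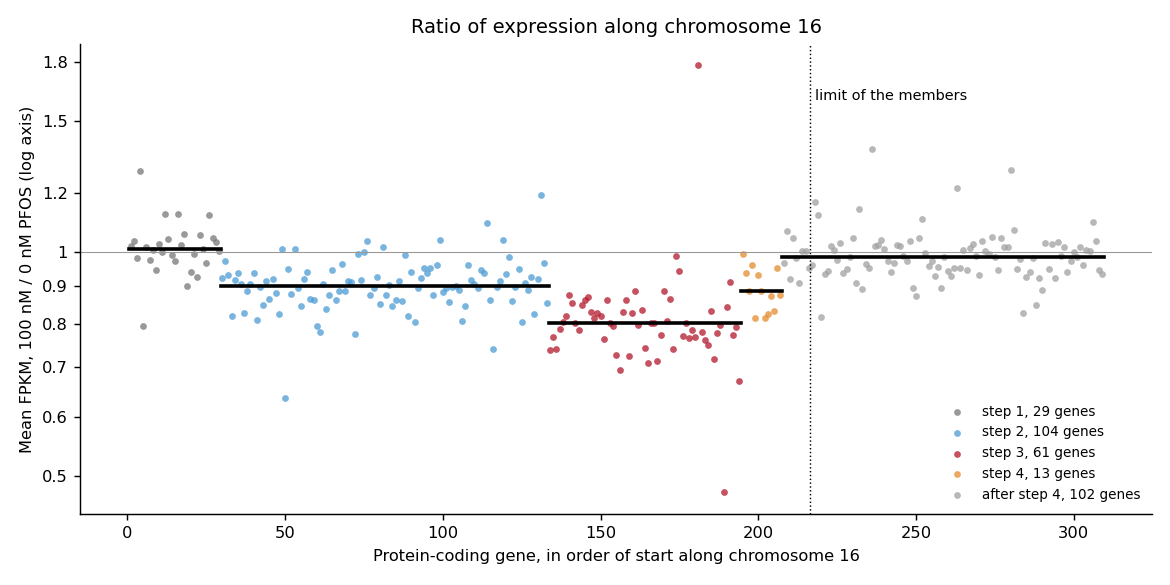
Ratio of mean FPKM, 100 nM over 0 nM PFOS (log axis), for each protein-coding gene of chromosome 16 with a mean of at least 1 FPKM, in order of start; each point is a gene, black lines are run medians, and the dotted line marks the 50 Mb limit. The medians go from 1.01 over 29 genes to 0.901 over 104, 0.802 over 61, 0.887 over 13 and 0.984 over the last 102 genes.

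Step 1 runs from Zfp263 (start 3744093) to Eef2kmt (start 5244152), and its 29 genes had a median ratio of 1.01, with 12 lower. Genes of other chromosomes had a median ratio of 1.006. Over all genes tested, 47.2% were lower and 13.3% were lower without overlap. Step 2 runs from Mettl22 (start 8470788) to Lpp (start 24393507), and its 104 genes had a median ratio of 0.901, with 95 lower, 67 of them without overlap between the groups. Step 3 runs from P3h2 (start 25959288) to Arhgap31 (start 38598340), with 61 genes at a median ratio of 0.802. In it 60 of 61 genes were lower and 54 showed no overlap. Step 4 runs from B4galt4 (start 38742264) to Atg3 (start 45158785) and is thin, with 13 genes at a median ratio of 0.887, all 13 lower. Beyond it, from Abhd10 (start 45729725) to the end of the tested genes, 102 genes had a median ratio of 0.984, and 59 of them were lower.

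Of the members called lower by limma, 24 lie in step 2, 40 in step 3 and 2 in step 4. These are 23.1%, 65.6% and 15.4% of the protein-coding genes of those steps, against 2.46% of all genes tested. Step 3 holds 60.6% of the members called lower. In equal windows of 5 Mb, the medians went from 1.003 (22 members) at 0 to 5 Mb to 0.896, 0.898 and 0.916 between 10 and 25 Mb (25, 48 and 35 members). They were 0.814 at 30 to 35 Mb (35 members), 0.789 at 35 to 40 Mb (26 members), 0.887 at 40 to 45 Mb (13 members) and 0.981 at 45 to 50 Mb (11 members). The window at 25 to 30 Mb holds only 4 members, with a median of 0.755. At 5 to 10 Mb the median of 14 members was 0.969 and divided at 7.5 Mb into 1.031 and 0.923, with 7 members on each side.

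**Figure D2:**
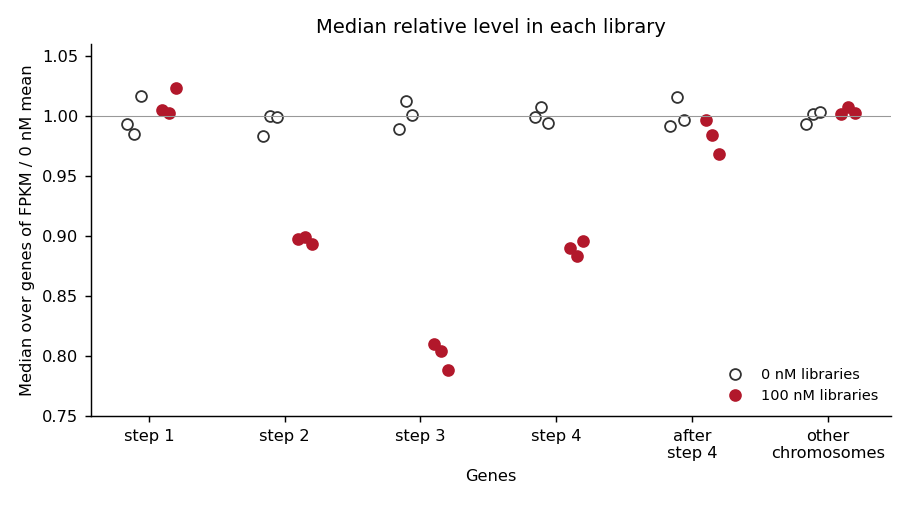
Median over protein-coding genes of each gene's relative FPKM in each library (open circles 0 nM, filled circles 100 nM), for each step, for the rest of chromosome 16 and for all tested genes of other chromosomes. Each 100 nM library is set against the gene's 0 nM mean, and each 0 nM library against the mean of the other 0 nM libraries. In steps 2, 3 and 4 every 100 nM library lies below every 0 nM library, with step 3 lowest at 0.789 to 0.810.

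The steps were alike in all 3 libraries of a dose. Each 100 nM library was set against the 0 nM mean of each gene, and each 0 nM library against the mean of the other 0 nM libraries. The SDs of the doses below therefore do not share a base. The median over step 3 was 0.989, 1.013 and 1.001 in the 0 nM libraries and 0.810, 0.804 and 0.789 in the 100 nM libraries. The 3 libraries of each dose lay close together, and the doses did not overlap. Step 2 stood at 0.897 ± 0.003 at 100 nM (SD, n = 3) against 0.994 ± 0.009 at 0 nM (SD, n = 3), and step 4 at 0.890 ± 0.006 against 1.000 ± 0.006. Step 1 stood at 1.010 ± 0.012 against 0.998 ± 0.016, so its groups overlapped. Without replicate 3 at 100 nM, the median difference over the members of every gene type was -0.13 in step 2 and -0.27 in step 3 on the log2(FPKM + 1) scale, where it was -0.13 and -0.26 with that library. The genes past step 4 stood at 0.983 ± 0.014 against 1.001 ± 0.013 and overlapped too. Deviations within a dose do not enter the contrast that picked the stretch. The median deviation of the members from their own group mean was at most 0.011 on the log2(FPKM + 1) scale in any library, and at most 0.017 for any single step. For distal chromosome 16 it was at most 0.0082 in any library, and for all genes tested at most 0.0052.

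The genes on either side of the step ends are given as a description, since the ends were placed on these same ratios. At the end of step 1, Alg1, which adds the first mannose in N-glycan assembly, had a ratio of 1.031, and Eef2kmt, a methyltransferase for elongation factor 2, 1.002; their exons overlap on opposite strands. No protein-coding gene at this level follows until Mettl22, more than 3 Mb on, so where the values change in between cannot be told. Mettl22 had a ratio of 0.923, Tmem186 0.973, Pmm2, a phosphomannomutase of glycan synthesis, 0.933 and Carhsp1, an RNA-binding protein, 0.822. At the end of step 2, Bcl6, a transcriptional repressor, had 0.968 and Lpp, a focal adhesion protein, 0.854, and in step 3 P3h2, a collagen prolyl hydroxylase, followed at 0.738 and Il1rap, the interleukin-1 receptor accessory protein, at 0.769. At the end of step 3, Arhgap31, a GTPase-activating protein for Rac and Cdc42, had 0.670, and the next gene, B4galt4, a galactosyltransferase, had 0.994. Atg3, the enzyme that couples LC3 to lipid in autophagy, closed step 4 at 0.876, and Abhd10 and Phldb2 followed at 0.966 and 1.068.

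**Figure D3:**
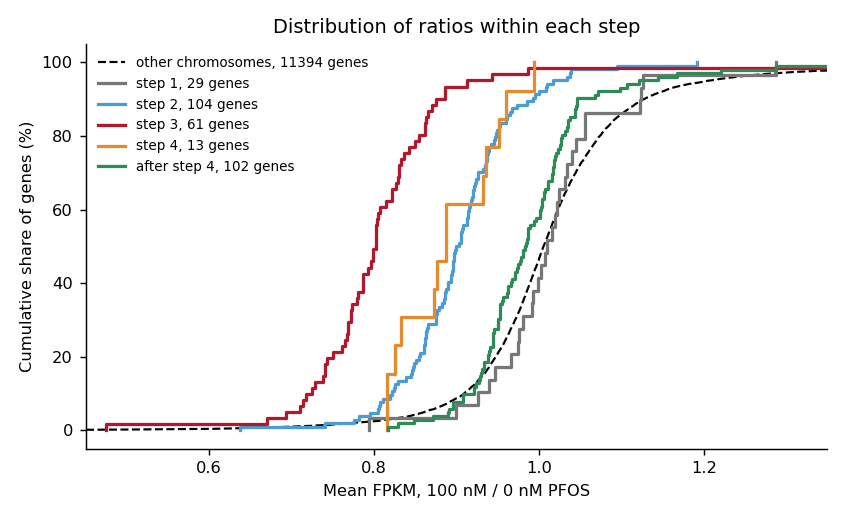
Cumulative share of protein-coding genes at or below each ratio of mean FPKM, 100 nM over 0 nM PFOS, for each step and the rest of chromosome 16, with all tested genes of other chromosomes as a dashed line; the axis is cut at both ends. The curve of step 3 lies left of the others over most of its length, with 57 of 61 genes under a ratio of 0.9, and step 1 lies near the dashed line.

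The steps were placed to keep the ratios within each run close together, so the spread within a step is a description only. The middle 50% of genes spanned 0.976 to 1.040 in step 1, 0.863 to 0.938 in step 2 and 0.767 to 0.836 in step 3. In step 4 it spanned 0.833 to 0.936, and over all genes tested 0.958 to 1.057. In step 3, 57 of 61 genes had a ratio under 0.9, against 9.64% of all tested genes, and 30 had one under 0.8. The level of a gene was hardly related to its ratio: across genes, Spearman's rho of ratio and mean FPKM was -0.11 in step 2 and 0.10 in step 3. With exon length it was -0.24 in step 1 (29 genes), -0.02 in step 2 (104), -0.35 in step 3 (61) and -0.66 in step 4 (13), so longer genes tended to the lower ratios in steps 1, 3 and 4. These correlations are over genes that share their libraries, and are given as a description. The 120 members on the plus strand had a median ratio of 0.885 and the 113 on the minus strand 0.912.

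**Figure D4:**
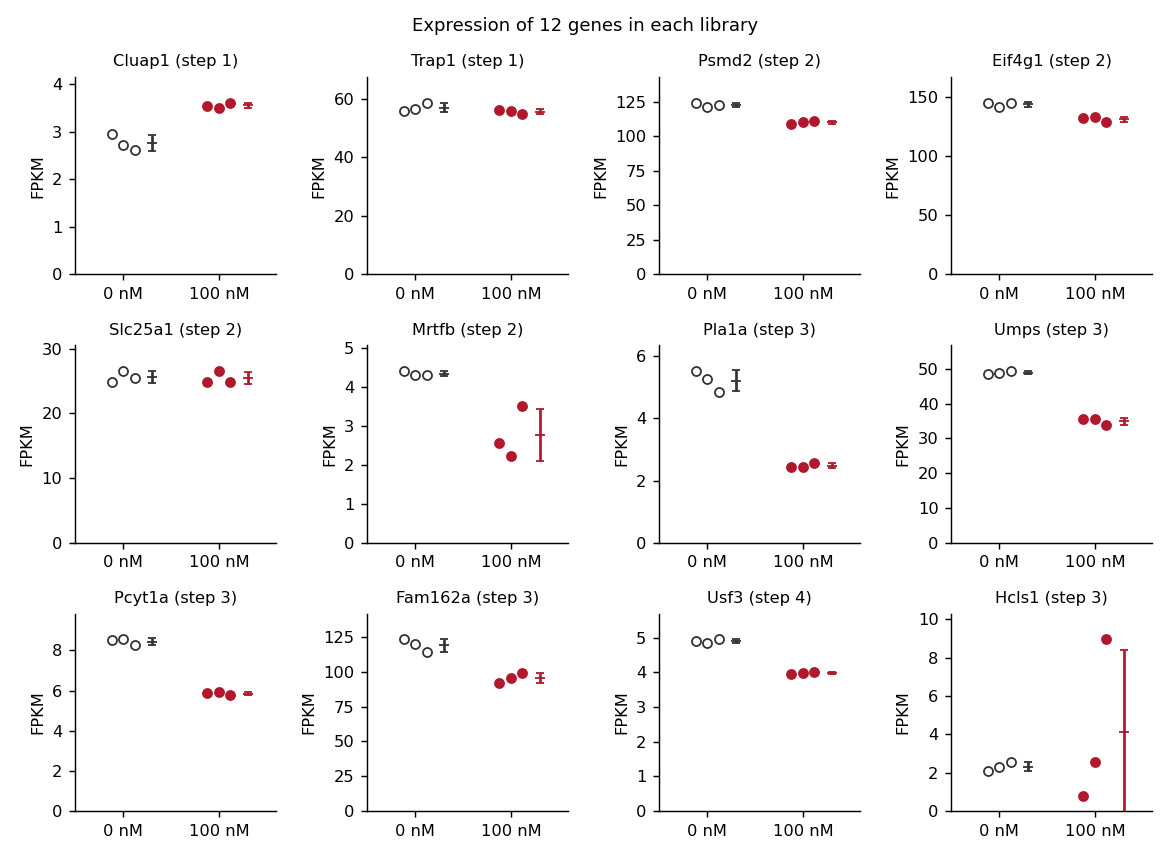
FPKM of 12 members in each of the 3 libraries at 0 nM (open circles) and at 100 nM PFOS (filled circles), with the mean and SD beside them; each axis starts at 0, where the SD bar of Hcls1 is cut. Umps, Pcyt1a, Pla1a and Fam162a show groups that lie apart, Trap1 and Slc25a1 groups that overlap, and Hcls1 one high library at 8.95 FPKM.

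The members are described next by role. A listed gene is called measured if it is a member, with a mean of at least 1 FPKM. Listed genes under that level are left out of the counts. The counts called lower, or lower without overlap, in each list can be read beside 28.3% and 56.2% of all members, and beside 2.46% and 13.3% of all tested genes, and nothing particular to a list is drawn from them. Among enzymes of lipid and nucleotide metabolism, Pla1a had the lowest ratio of all members. It encodes a phospholipase that cleaves phosphatidylserine (ENSMUSG00000002847, chromosome 16, 38396117 to 38433145, minus strand). Its level was 5.52, 5.27 and 4.85 FPKM in the 0 nM libraries and 2.45, 2.42 and 2.56 FPKM at 100 nM, a ratio of 0.475. The groups lie far apart, and none of its 31-base words occurs in transcripts of other genes. Pcyt1a (32430921 to 32475070, plus strand), the enzyme that makes CDP-choline in the rate-limiting step of phosphatidylcholine synthesis, stood at 8.51, 8.55 and 8.25 FPKM against 5.86, 5.92 and 5.76 FPKM, a ratio of 0.693. Umps (33954782 to 33967038, minus strand), which makes UMP in pyrimidine synthesis, stood at 48.53, 48.71 and 49.32 FPKM against 35.47, 35.42 and 33.70 FPKM, a ratio of 0.714. For both genes the gap between the groups was wider than the spread within either. Poglut1, which puts glucose on Notch, was at 16.6 ± 0.54 FPKM (SD, n = 3) against 12.8 ± 0.25 FPKM, and Xxylt1, which extends the same glycans with xylose, at 12.3 ± 0.55 FPKM against 10.5 ± 0.19 FPKM.

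Of the lipid and glycan enzymes listed for the stretch, 12 of 19 names were measured (the lists hold some older names of the same genes); 10 were lower, 7 of them called, and 9 without overlap, at a median ratio of 0.845. Those not lower were Alg1 in step 1, at 1.031, and Alg3 in step 2, at 1.095, both mannosyltransferases of N-glycan assembly. Their groups overlapped.

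Among cell surface proteins, Itgb5 (33829665 to 33949338, plus strand), the beta chain of an integrin that binds vitronectin, stood at 44.83, 46.03 and 46.39 FPKM at 0 nM and at 36.80, 37.39 and 36.08 FPKM at 100 nM, a ratio of 0.803. All its 100 nM values lay below all its 0 nM values. Il1rap, the co-receptor of interleukin-1 signalling, was at 2.87 ± 0.12 FPKM (SD, n = 3) against 2.20 ± 0.038 FPKM. Cd47, the ligand through which cells inhibit phagocytosis, lies past step 4 and was at 26.0 ± 0.86 FPKM against 24.8 ± 0.68 FPKM, with overlap. Of this list 9 of 17 were measured; 8 were lower, 2 of them called, at a median ratio of 0.906. The other was Ppl, the desmosomal plakin periplakin in step 1, at 5.26 ± 0.32 FPKM against 5.91 ± 0.29 FPKM.

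Tigit, which encodes an inhibitory receptor of T and NK cells, was the most abundant gene of step 4. Its level was 67.25, 65.96 and 69.12 FPKM at 0 nM and 63.26, 65.72 and 60.46 FPKM at 100 nM, a ratio of 0.936. It was high in all 6 libraries, also in those where Cd3e, Cd3g and Nkg7 were listed at 0, and it was lowest in the library where those markers were highest.

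Of 14 signalling genes listed, 10 were measured and all 10 were lower, with 5 called, 9 without overlap and a median ratio of 0.863. They lie only in step 2 (6 genes) and step 3 (4 genes), where most protein-coding genes were lower. Pak2, a kinase activated by Rac and Cdc42, was at 35.06, 36.42 and 35.25 FPKM against 29.34, 29.45 and 28.11 FPKM, a ratio of 0.814. Gsk3b, the kinase that marks beta-catenin for destruction, was at 7.59, 7.53 and 7.46 FPKM against 5.88, 5.90 and 5.82 FPKM, a ratio of 0.779. Both lie in step 3, and their groups did not overlap. Tnk2, a tyrosine kinase downstream of Cdc42, had a ratio of 0.831 in step 3, and Crkl, an adaptor protein, 0.926 in step 2.

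Genes of transcription, RNA processing and translation were all measured and all lower, 21 of 21, with 11 called, 16 without overlap and a median ratio of 0.898, against 28.3% called and 56.2% without overlap among all members. Of these genes 14 lie in step 2, 5 in step 3 and 2 in step 4. Eif4g1 (20668313 to 20692884, plus strand), the scaffold of the cap-binding complex, was at 144.96, 141.56 and 144.46 FPKM against 132.03, 132.80 and 128.69 FPKM, a ratio of 0.913. Rsl1d1, a nucleolar protein of ribosome assembly, was at 103 ± 1.6 FPKM (SD, n = 3) against 94.5 ± 2.0 FPKM, a ratio of 0.921. At these levels a difference of this size exceeded the spread between replicates and the groups did not overlap. The lowest ratio of the list was that of Fyttd1, an adaptor of mRNA export in step 3, at 22.70, 22.84 and 23.33 FPKM against 16.40, 17.07 and 16.41 FPKM (0.724). Its exons overlap those of Rubcn on the other strand, which had a ratio of 0.862, and whether strand was used in quantification is not given in the sources used here.

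In the ubiquitin and SUMO system, 15 of 16 listed genes were measured and 15 were lower, with 8 called, 12 without overlap and a median ratio of 0.856. Psmd2 (20651652 to 20663414, plus strand), a subunit of the proteasome's regulatory particle, was at 124.03, 121.35 and 122.75 FPKM against 108.98, 110.31 and 110.63 FPKM, a ratio of 0.896. It shares 31.6% of its words with other transcripts, so part of its reads could be assigned elsewhere. Fbxo45, the substrate receptor of a ubiquitin ligase, had a ratio of 0.764. Rnf168, which ubiquitinates histones at DNA breaks, had 0.802, and Ubxn7, an adaptor of the p97 ATPase, 0.796, all in step 3 and all called lower. Dtx3l, a ubiquitin ligase paired with Parp9, was an exception in that step at 0.987. Parp9, whose exons overlap it on the other strand, stood at 0.943, and both overlapped between the groups.

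Among vesicle and nuclear traffic genes 9 of 10 had a mean of at least 1 FPKM. The other, Vps8, lay just below that level, at a ratio of 0.937 with overlap between the groups. The 9 members were all lower without overlap and 7 were called, at a median ratio of 0.807. They too lie only in step 2 (4 genes) and step 3 (5 genes). Snx4, a sorting nexin of endosomal recycling, was at 24.0 ± 0.25 FPKM (SD, n = 3) against 17.8 ± 0.34 FPKM. Golgb1, the Golgi tether giantin, had a ratio of 0.769, and Kpna1, an importin that carries proteins into the nucleus, 0.772. Ranbp1 (18239784 to 18248732, minus strand), a regulator of the Ran GTPase in step 2, was the most abundant protein-coding member, at 157.69, 158.58 and 163.76 FPKM against 143.61, 142.52 and 142.88 FPKM, a ratio of 0.894. Its exons overlap those of Trmt2a on the other strand.

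Among the lists, that of mitochondrial proteins had the median nearest to 1. All 9 listed genes were measured and 9 were lower, but 1 was called and 3 were without overlap, at a median ratio of 0.960. They lie in step 1 (2 genes), step 2 (5 genes) and step 3 (2 genes). Trap1, the mitochondrial HSP90, lies in step 1 and was at 55.91, 56.36 and 58.53 FPKM against 56.26, 55.60 and 54.79 FPKM, a ratio of 0.976. Slc25a1, the mitochondrial citrate carrier, lies in step 2 and was at 24.80, 26.53 and 25.49 FPKM against 24.84, 26.47 and 24.92 FPKM, a ratio of 0.992. The groups of both genes overlap. The members of this list that lie in step 3 were lower, Ndufb4 of respiratory complex I at 0.833, which was the one called, and Cox17, a copper chaperone of cytochrome oxidase, at 0.799. Opa1, the GTPase that fuses inner mitochondrial membranes, was not on the list and was at 14.3 ± 0.35 FPKM (SD, n = 3) against 11.2 ± 0.24 FPKM in step 3. Fam162a, a mitochondrial protein that rises in hypoxia, was also not on the list. It was at 123.48, 120.30 and 114.13 FPKM against 92.31, 95.62 and 99.45 FPKM, the highest levels in step 3.

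Of 10 chromatin and DNA repair genes, all measured, 7 were lower, 2 were called, against 28.3% of all members, and the median ratio was 0.927. They lie only in step 1 (3 genes) and step 2 (7 genes), and step 3, which holds most calls, has no gene of this list. In step 1, the coactivator Crebbp had a ratio of 1.007 and the nucleosome-binding protein Glyr1 1.010. In step 2, Prkdc, the catalytic subunit of DNA-dependent protein kinase, had 0.782 without being called, Hira, a chaperone of histone H3.3, 0.890, and Ercc4, a subunit of a repair nuclease, 1.008. Hira shares 43.1% of its words with other transcripts.

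Of the transcription factors and coregulators listed, 7 of 10 were measured; 6 were lower and 2 were called, at a median ratio of 0.839. Zfp148, a zinc finger factor in step 3, was at 8.47, 8.07 and 8.30 FPKM against 5.82, 5.96 and 5.86 FPKM, a ratio of 0.710. Etv5, an ETS factor in step 2, was at 16.3 ± 0.65 FPKM (SD, n = 3) against 13.1 ± 0.38 FPKM. Mrtfb, a coactivator of serum response factor, had the lowest ratio in step 2, at 4.40, 4.31 and 4.30 FPKM against 2.56, 2.23 and 3.50 FPKM (0.637). Its 100 nM values were uneven, though all below those at 0 nM, and it was not called.

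**Figure D5:**
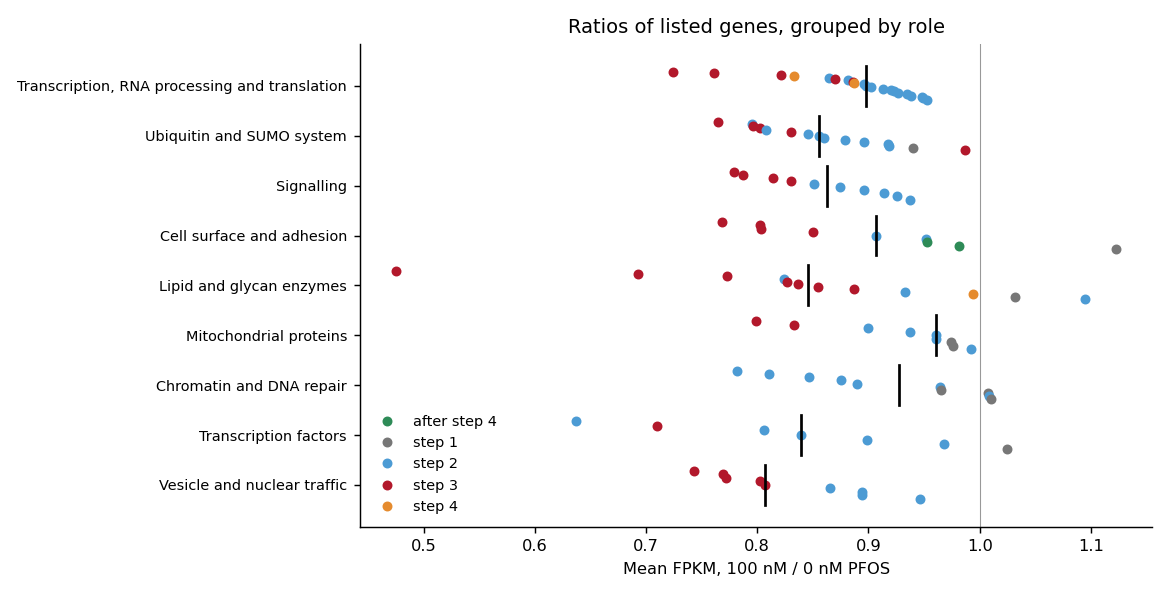
Ratio of mean FPKM, 100 nM over 0 nM PFOS, for each measured gene of 9 lists of roles, coloured by step, with the median of each list as a black bar. Where a list holds genes of both, most genes of step 3 lie left of most genes of step 2, with Dtx3l at 0.987 an exception, and the list medians run from 0.807 for vesicle and nuclear traffic to 0.960 for mitochondrial proteins.

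A few members went against their neighbours. In step 3, Hcls1, a signalling protein of blood cells, was the one gene with a higher mean. Its level was 2.08, 2.28 and 2.55 FPKM at 0 nM and 0.80, 2.57 and 8.95 FPKM at 100 nM, so the mean rests on replicate 3, where the T and NK cell markers were highest. Without that library its difference was -0.38 on the log2(FPKM + 1) scale, where it was 0.28 with it. The part of those cells' transcripts in this value was not tested. In step 2, 8 protein-coding genes had a higher mean and 1 an equal one. The highest ratio was that of Rtp4, an interferon-induced gene, at 1.40, 1.56 and 1.72 FPKM against 1.29, 1.29 and 3.00 FPKM, again with replicate 3 highest.

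In step 1, Cluap1, a ciliary transport protein, was the only member called higher, at 2.95, 2.72 and 2.62 FPKM against 3.55, 3.51 and 3.61 FPKM, a ratio of 1.287. Its groups did not overlap, but 36.1% of its words also occur in transcripts of other genes, and it was not called when any 1 of the 6 libraries was left out. The next highest, Nmral1, Ppl and Pam16, had ratios of 1.126, 1.123 and 1.123 and were not called. Nlrc3, an immune regulator at about 1 FPKM, had the lowest ratio of the step at 0.794, with overlap.

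Pseudogenes of the stretch did not follow the steps. The 13 pseudogenes had a median ratio of 1.044, 4 were lower and 0 showed lower values without overlap, while the 216 protein-coding members had a median of 0.892. Pseudogenes share a median of 81.0% of their 31-base words with transcripts of other genes, and 11 of 13 share more than 50%, so their values are uncertain. Protein-coding members share a median of 2.64%. The 166 protein-coding members that share under 10% had a median ratio of 0.886, with 55 called lower. That is 33.1% of them, against 28.3% of all members and 2.46% of all genes tested. Of all members, 43 members overlap another tested gene in their exons.

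Genes of the region that the level kept out gave a less clear picture. Those with a mean of 0.2 to 1 FPKM had median ratios of 1.168 (8 genes) within the limits of step 1, 0.966 (40) in step 2, 0.860 (17) in step 3, 0.889 (5) in step 4 and 0.966 (33) beyond. Their middle 50% spanned 0.731 to 1.057 in step 3, far wider than among members. The 9 genes left out by name lie in steps 2 and 3. Of them 7 were lower, all 7 without overlap, and 4 were called, at a median ratio of 0.875. The shares without overlap and called are 77.8% and 44.4%, against 13.3% and 2.46% of all genes tested. At the limits of the rule, Zfp597 (ratio 1.034) and Hspbap1 (0.741) lay just above 1 FPKM, and Vps8 (0.937) and Slc35a5 (0.862) just below it. Ift57 (1.002) and Cd47 (0.952) were the last genes before 50 Mb, and Bbx (0.961) and Cblb (1.167) the first after it.

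The distal part of the chromosome, with 105 genes that start after 50 Mb, had a median ratio of 0.986. Of these genes 58 were lower, 2 were called lower and 21 were lower without overlap. The shares are 55.2%, 1.90% and 20.0%, against 47.2%, 2.46% and 13.3% of all genes tested. In the same first 50 Mb of the other chromosomes, the median ratios ran from 0.953 to 1.017. On chromosome 16, with the 9 left-out genes counted in, the median was 0.896 and 81.8% were lower, and the chromosome with the next lowest median had 78.3% lower. The difference between the stretch and those regions was not tested, because the stretch was picked for it.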

How the data were processed

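Poly(A) RNA of 4T1 cells was measured, with 3 libraries for each of the doses 0 nM and 100 nM PFOS. The submitters' processing notes name fastp, HISAT2, StringTie and the builds mm10 and GRCh38. Not given in the sources used here are the tool versions, what GRCh38 was for, and whether strand entered the quantification. The deposited values are FPKM per gene, and the files hold no counts, so depth and counting error are unknown. All 233 members have the same start in GENCODE M21 (GRCm38), and 196 the same start and end, so the coordinates are those of GRCm38.

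Genes at 1 FPKM or more on average were fitted with limma 3.58.1 (R 4.3.3, trend, two-sided, no covariate) on log2(FPKM + 1), 100 nM minus 0 nM, with Benjamini-Hochberg adjustment over all 11741. Ratios are of mean FPKM. In simulated data of 11741 genes, the fit recovered 14% of genes lowered 1.1-fold, 54% at 1.25-fold, 68% at 1.5-fold and 82% at 2-fold, with 7 false among 116 calls. There, noise was drawn independently for each gene. At each fold 50 genes were lowered, picked at random among genes above 1 on the log2(FPKM + 1) scale. Neighbouring genes were lower together in the real libraries, so these rates need not hold for them. Runs along the chromosome minimise the absolute deviation with at least 5 genes each. Shared words are 31-base words of a gene's transcripts found in other genes' transcripts. Python 3.11.15, numpy 2.4.6, pandas 2.3.3, scipy 1.17.1 and matplotlib 3.10.9 served for all other steps.

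The members, the lists of roles and the markers were chosen with earlier results of these data known. Genes were named by a rule: Pla1a; in each 5 Mb window the protein-coding member of highest level and of lowest difference; the 5 lowest and 5 highest differences at 2 FPKM or more; the 2 most abundant of each list; and the genes next to each limit. Predicted genes, RIKEN clones and pseudogenes were not named. Other genes were named after their values were seen. A gene that the rule names is not reported here. Alternatives covered pseudocounts, filters, scaling, moderation, the replicate number as a block, leaving out libraries, gene type, shared words, and window width or number of runs.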

Additional observations from a re-analysis of the deposited data

How the results depend on the processing

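Over 18 alternatives the median difference of the stretch, -0.1389 on the log2(FPKM + 1) scale, ranged from -0.155 to -0.1357. It was -0.155 with a pseudocount of 0.1, -0.1476 with 0.5, -0.1457 with a mean of at least 2 FPKM, -0.1516 scaled to TPM, -0.1467 with protein-coding genes and -0.1511 with members sharing under 10% of words. The 66 members called lower became 35 with no filter on low values, 25 to 38 when 1 library was left out and 11 without replicate 3 of both groups. The 487 calls over all genes became 204 with no filter, 294 without the trend, 122 to 289 with 1 library left out and 74 without replicate 3 of both groups. The lowest median of a 5 Mb window with at least 10 members, -0.2594, was -0.3321 and -0.2963 with pseudocounts of 0.1 and 0.5, -0.319 in TPM, -0.3043 in windows of 2.5 Mb, -0.3124 as a running median over 15 members or as 6 runs, -0.3411 as a log2 ratio of means, -0.2824 without replicate 3 of both groups, and from -0.2946 to -0.26 with 1 library left out. With the replicate number as a block, 16 members were called lower and 58 genes in all. Across genes, libraries with the same number did not deviate together (correlations of -0.033, -0.053 and 0.0065). Libraries with different numbers had correlations of -0.029 to 0.072. The labels do not say whether the numbers pair the samples. These correlations cannot decide it, since a pairing that affects few genes would hardly show in them. The count of members with a lower mean was 173 to 196, and that without overlap 125 to 153. Of 42 named genes, 37 kept their sign under every alternative; Glyr1, Hcls1, Ift57, Slc25a1 and Zfp597 did not. Where counts of calls moved, fewer samples or more genes tested enter by construction. So does the replicate block, which leaves less information to estimate the spread. For the other shifts the cause was not tested.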
